A study of Homo sapiens with 24 samples.

Results

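Circular RNAs were compared in HCC827 cells, a human lung adenocarcinoma line that carries an activating mutation of the receptor kinase EGFR, after 10 days of osimertinib (Osi), a kinase inhibitor that blocks mutant EGFR, and after 10 days of DMSO, its solvent. Each group had 3 libraries of total RNA from which ribosomal RNA had been removed, and these 6 libraries are all those with circular RNA values among the 24 libraries of the series. Both groups are labelled WT, and their labels name neither the overexpressed circular RNA cATF6 nor the empty vector (EV) of the other libraries. The labels used here give no drug dose and do not say whether replicates were grown separately. All p-values below therefore describe only how these libraries vary, which may be technical. Gene counts of these 6 libraries were not analysed here, so the cell line could not be checked against its defining markers.

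Members were all circular RNAs (circRNAs) of the deposited table, 2996 after 1 repeated entry was counted once, from 2533 host genes. Of the hosts, 2157 had 1 circRNA, 318 had 2, 50 had 3 and 8 had 4. A circRNA was tested where 3 or more libraries held 2 or more reads, which left 870. Deposited read numbers were not always whole, so a library can hold 2.5 reads of a circRNA.

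A circRNA forms when the end of a downstream exon is joined to the start of an upstream exon of the same transcript, a reaction called back-splicing. The closed ring has no free ends and is therefore spared by the exonucleases that degrade linear messages, so that it can persist in cells that divide slowly. Some rings bind microRNAs or proteins, but for most no role is known, and sequencing detects them only through reads that cross the back-splice junction. ATF6, the gene named in the cATF6 construct, encodes a transcription factor held in the membrane of the endoplasmic reticulum (ER) until unfolded proteins build up there.

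The junction of a circRNA is the only part of its sequence that is absent from the linear message, and a few are printed here because the results below turn on them. Lower case gives the last 15 bases of the last exon and capitals the first 15 bases of the first exon, both 5′ to 3′ on the strand of the gene. They were read from GENCODE 29 transcripts on GRCh38, by matching the strand and the length between junction ends given in the deposited table, whose own coordinates are on hg19. For hsa_circATF6_019 the exon pair is 1 base shorter than the listed interval, so 1 listed end lies 1 base outside it.
hsa_circATF6_019 (exons 7 to 8 of ATF6-201, chr1:161771841-161789608 of hg19, plus strand): gaagttgtgtcagagGCCAGACGGTTTTGC
hsa_circATF6_024 (exons 2 to 7 of ATF6-201, chr1:161748034-161772062 of hg19, plus strand): aatgtcggttcagatATTCTGCTCTCTTTG
hsa_circISPD_003 (exons 2 to 3 of ISPD-202, chr7:16415717-16445962 of hg19, minus strand): gaagcatatcagcagAGTATGTTGGATAAA
hsa_circISPD_012 (exons 5 to 8 of ISPD-201, chr7:16255691-16317851 of hg19, minus strand): atatcttacccacagAGAGAATTTCCCAAG
hsa_circBABAM1_011 (exons 7 to 8 of BABAM1-201, chr19:17387304-17387718 of hg19, plus strand): gagatgagttggaagCCAGCAGAAAACTGA
hsa_circGLG1_024 (exons 20 to 23 of GLG1-201, chr16:74493580-74497377 of hg19, minus strand): gaattgtgtaaaaagAGGTTCTGTCCGGAA
hsa_circPDK1_008 (exons 2 to 6 of PDK1-201, chr2:173423436-173431661 of hg19, plus strand): ttgaagaactaaatgGATCAGTGAATGCTT
hsa_circFGD6_014 (exons 4 to 14 of FGD6-201, chr12:95498783-95546769 of hg19, minus strand): cattctctcagccagGATGAAGATAATGGA
hsa_circMAP3K1_008 (exons 4 to 6 of MAP3K1-201, chr5:56160561-56161804 of hg19, plus strand): tagttcagaaaacagTTTCAGAGTGGCAGA

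Of the 870 tested circRNAs, 681 (78.3%) matched a single pair of annotated exons. They held a median of 3 exons and 524 bases if all exons between the ends are retained. Exon 2 was the first exon of 268 (39.4%), 60 (8.81%) were made of 1 exon, 3 began at exon 1 and 4 ended at the last exon, the terminal exons being those that normally lack one of the splice sites a ring needs. Circles that began at exon 2 had a median log2 fold change of 0.15 (Osi over DMSO), against 0.24 over all tested circRNAs, and those of 1 exon, of 2 to 4 exons and of 5 or more exons had medians of 0.19, 0.28 and 0.22.

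The Osi libraries held more back-splice reads than the DMSO libraries. Totals were 7308, 7283 and 7120 reads in Osi libraries and 4941, 5987 and 5868 reads in DMSO libraries, a ratio of means of 1.29. The number of circRNAs with a read was 1353, 1486 and 1388 in Osi libraries and 1062, 1232 and 1169 in DMSO libraries. Every Osi library lay above every DMSO library in both measures, with p = 0.1 in a two-sided exact permutation test, the smallest p that 3 against 3 libraries allow. The total number of sequenced reads per library is not known from the table, so more circRNA per cell and deeper sequencing cannot be told apart, nor, in bulk RNA, can more rings per cell and more cells with a ring.

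The 10 circRNAs with the highest mean scaled level over all 6 libraries took a smaller share of reads in Osi, and 5 of them lay lower in Osi without overlap after scaling. These 10 took 6.16, 5.13 and 5.86% of reads in Osi libraries, against 10.3, 7.94 and 9.78% in DMSO libraries (two-sided exact permutation p = 0.1). Without hsa_circPION_012, which was far lower in Osi, the other 9 took 6.03, 4.80 and 5.58% in Osi libraries and 8.54, 6.20 and 8.23% in DMSO libraries. The groups did not overlap with or without it.

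**Figure D1:**
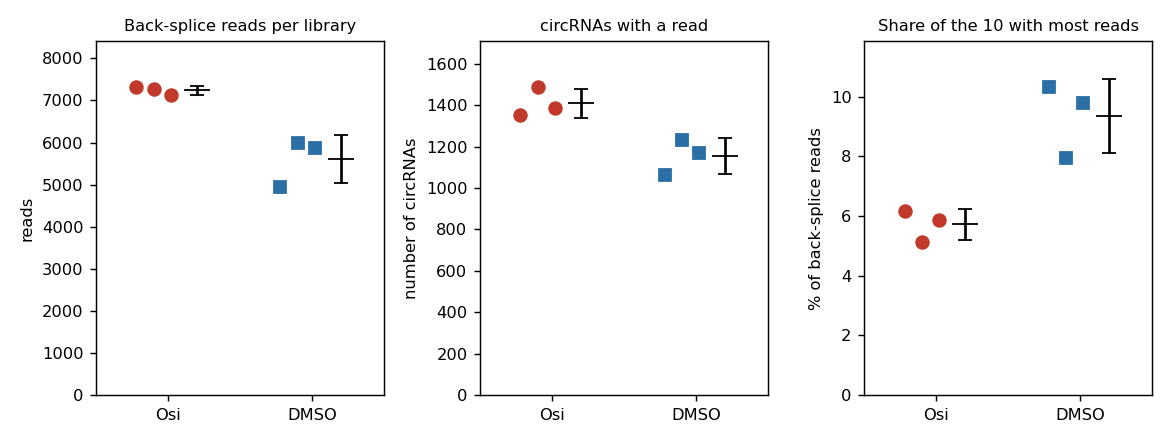
Back-splice reads (left), circRNAs with a read (middle) and the share of reads in the 10 circRNAs with the most reads (right), 1 point per library, Osi as circles and DMSO as squares, with the mean and SD of 3 libraries beside them. All 3 Osi libraries have at least 7120 reads and all 3 DMSO libraries at most 5987, while the share of the leading 10 is higher in DMSO.

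Long circles made up slightly more of the reads in Osi libraries. Circles whose ends lie more than 30 kb apart in the genome took 16.8 ± 0.235% of reads in Osi and 14.4 ± 1.16% in DMSO (SD, n = 3 libraries each; two-sided exact permutation p = 0.1, adjusted p = 0.3 over 3 classes). The share of circles under 5 kb was 36.8 ± 0.928% in Osi and 38.8 ± 1.26% in DMSO (exact p = 0.2, adjusted p = 0.3), and the share from 5 to 30 kb was 46.4 ± 1.06% in Osi and 46.8 ± 0.815% in DMSO (exact p = 0.7). None of these classes passed the threshold of 0.05, which the design could not reach.

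Single libraries sampled the circRNAs sparsely. Only 333 circRNAs (11.1%) had a read in all 6 libraries, and 1235 (41.2%) had one in a single library. A further 57 had reads in all 3 Osi libraries and in no DMSO library, and 18 had reads in all 3 DMSO libraries and in no Osi library. Among tested circRNAs, 567 (65.2%) were listed at 0 in at least 1 library.

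A listed 0 did not always follow from low abundance. hsa_circISPD_003, the circRNA with the most reads, had 141, 114 and 142 reads in Osi libraries and 118, 0 and 79 reads in DMSO libraries. It was 1 of 8 circRNAs with at least 10 reads in 5 libraries and 0 in the sixth, beside 23 with at least 10 reads in all 6. A 0 in the table may therefore be a missed call, and circRNAs with a group listed at 0 are given below by their reads in each library, without a fold change.

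No single circRNA passed the test between Osi and DMSO. With limma on log2(scaled reads + 1) and Benjamini-Hochberg adjustment over 870 circRNAs, 0 had an adjusted p under 0.05 in either direction (background 0%), and the smallest adjusted p was 0.0604. At an unadjusted p under 0.05 there were 88 higher (10.1%) and 34 lower (3.91%) in Osi, and weighting the same values with voom called 0 higher and 1 lower, hsa_circPION_012. The groups did not overlap for 112 circRNAs higher (12.9%) and 64 lower (7.36%) in Osi. Of these, 37 of the higher and 13 of the lower had a whole group listed at 0 and could not overlap, given the filter. Such circRNAs are also among those counted by unadjusted p. Scaling moved the median log2 fold change over all circRNAs, which was 0.24 with trimmed means (TMM), 0.37 unscaled, 0.13 by total reads, 0.17 with RLE size factors and 0.03 after quantile normalization. The adjusted p was under 0.1 for 49 circRNAs, 36 higher and 13 lower, and 45 of these had a whole group listed at 0.

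**Figure D2:**
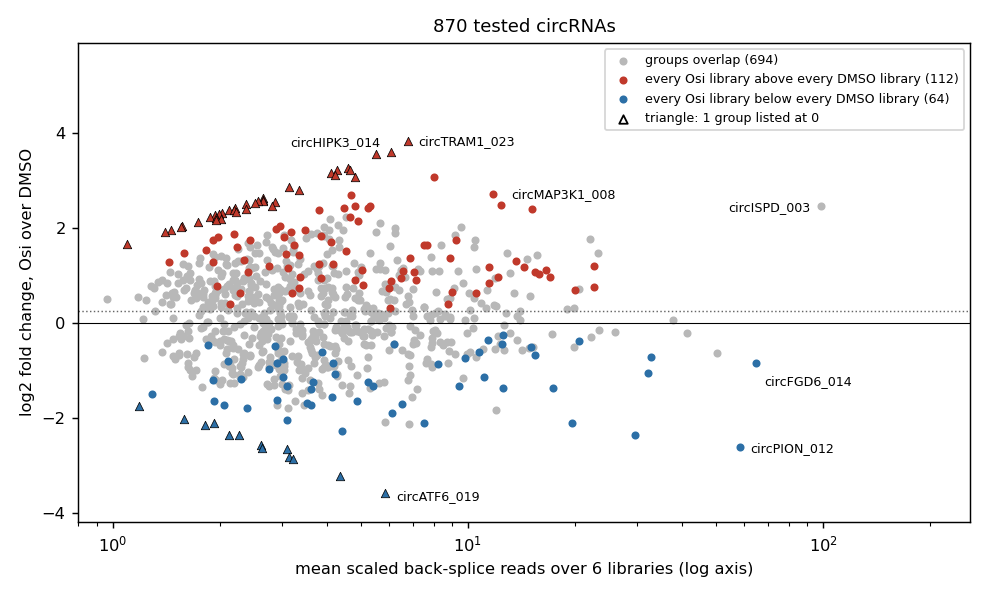
Log2 fold change (Osi over DMSO, fitted by limma) against the mean of scaled back-splice reads on a log axis, 1 point per tested circRNA; the dotted line is the median of 0.24, and triangles mark circRNAs with 1 group listed at 0, whose height depends on the added pseudocount. Among circRNAs with many reads, hsa_circPION_012 lies at -2.61, hsa_circGCN1L1_024 at -2.37 and hsa_circISPD_003 at 2.47, the last 2 each with 1 library at 0. The extreme values on both sides at low reads are triangles.

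The precision followed the number of reads. The median standard error (SE) of the log2 fold change was 0.78 for the 619 circRNAs with a mean under 5 scaled reads, 0.53 for the 232 with 5 to 20, and 0.35 for the 19 with 20 or more. Of those 19, 3 (15.8%) lay higher and 6 (31.6%) lower in Osi without overlap, against 12.9% and 7.36% over all tested circRNAs. The latter shares include circRNAs with a whole group listed at 0, which could not overlap. Among the lower ones, hsa_circCRKL_001, hsa_circTCONS_00015354_002 and hsa_circGCN1L1_024 overlapped in reads and were apart only after scaling.

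The clearest difference among abundant circRNAs was that of PION, a gene also known as GSAP, which encodes the gamma-secretase activating protein. hsa_circPION_012 (chr7:76999751-77000833, hg19, minus strand) had 9, 24 and 20 reads in Osi libraries, against 87, 104 and 91 reads in DMSO libraries. All libraries had reads and the groups lay far apart, with scaled levels of 16.8 ± 7.78 in Osi and 99.6 ± 4.64 in DMSO (SD, n = 3). The log2 fold change was -2.61 (SE 0.38), and the adjusted p by limma with Benjamini-Hochberg was 0.0604. It was under 0.05 in 6 of 20 other settings, 1 of them added after the data were seen, and ran from 7.47e-11 to 0.232 over all 20.

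Other circRNAs with the smallest p in the lower direction were listed at 0 in every Osi library, so their p depends on the pseudocount added to the zeros. hsa_circATF6_019 had 0, 0 and 0 reads in Osi libraries and 12, 15 and 6 reads in DMSO libraries (adjusted p = 0.0604, limma with Benjamini-Hochberg, or 0.0215 with a pseudocount of 0.1). Its exons 7 and 8 add up to 407 bases, the spliced length that the deposited table gives, and lie in the coding part of the message. It shares exon 7 with hsa_circATF6_024, which was listed with 3 reads in Osi library 2 and at 0 in the other 5, too few to be tested.

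Summed over both circles, ATF6 had 0, 3 and 0 reads in Osi libraries and 12, 15 and 6 reads in DMSO libraries, groups that did not overlap (adjusted p = 0.0843 over 863 hosts, limma with Benjamini-Hochberg). The labels used here do not say which junction cATF6 carries. EGFR, the target of the drug, had a single circRNA with few reads: hsa_circEGFR_011 (chr7:55096760-55230584, hg19, plus strand) had 2.5, 2 and 1.25 reads in Osi libraries and 0.75, 0 and 2.5 reads in DMSO libraries. These groups overlapped (log2 fold change 0.55, SE 0.65, adjusted p = 0.736 by limma), and the sign turned under quantile normalization (-0.14).

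Among the other leading circRNAs lower in Osi, CYP24A1 encodes the hydroxylase that inactivates vitamin D and PDK1 a kinase that restrains pyruvate dehydrogenase. hsa_circCYP24A1_003 had 0 reads in every Osi library and 7, 5 and 6 reads in DMSO libraries. hsa_circPDK1_008 had 0 reads in every Osi library and 4, 6 and 5 reads in DMSO libraries. hsa_circLRP5L_008, from a gene similar to the Wnt co-receptor LRP5, had 0 reads in every Osi library and 5, 9 and 11 reads in DMSO libraries.

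A further 4 circRNAs with a small p on this side were likewise listed at 0 in Osi, with 2 to 7 reads per DMSO library. CASP8AP2 encodes a factor in histone message processing, DPYD the enzyme that starts pyrimidine breakdown, GALNT7 an enzyme that adds sugars to serine and threonine, and PRKCA a calcium-dependent kinase.

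All 10 circRNAs with the smallest p in the higher direction were listed at 0 in every DMSO library. The leading one came from TRAM1, a membrane protein of the ER that assists in protein translocation: hsa_circTRAM1_023 had 10, 16 and 17 reads in Osi libraries and 0 reads in every DMSO library. hsa_circPHLDB2_002, from a protein that anchors microtubules at the cell edge, had 14, 13 and 8 reads in Osi libraries and 0 reads in every DMSO library. hsa_circHIPK3_014, the single-exon ring of 1099 bases from exon 2 of the kinase gene HIPK3 and one of the best known human circRNAs, had 21, 7 and 11 reads in Osi libraries and 0 reads in every DMSO library. Each had an adjusted p of 0.0604 by limma with Benjamini-Hochberg. That value depends on the listed zeros and on the pseudocount added to them, and was 0.0215 with a pseudocount of 0.1.

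hsa_circISPD_012 had 15, 4 and 11 reads in Osi libraries and 0 reads in every DMSO library, while the other ring of the same gene, hsa_circISPD_003, had reads in both groups, as above. ISPD makes CDP-ribitol, a sugar donor used on dystroglycan. hsa_circBABAM1_011, from a subunit of the BRCA1-A repair complex, had 11, 13 and 5 reads in Osi libraries and 0 reads in every DMSO library. hsa_circGLG1_024, from a Golgi glycoprotein, had 6, 6 and 8 reads in Osi libraries and 0 reads in every DMSO library. The other 4 came from BICC1, an RNA-binding protein, DOPEY2, a trafficking protein, PPHLN1, a member of a gene silencing complex, and ARHGEF26, an exchange factor for small GTPases, with 4 to 15 reads in each Osi library.

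**Figure D3:**
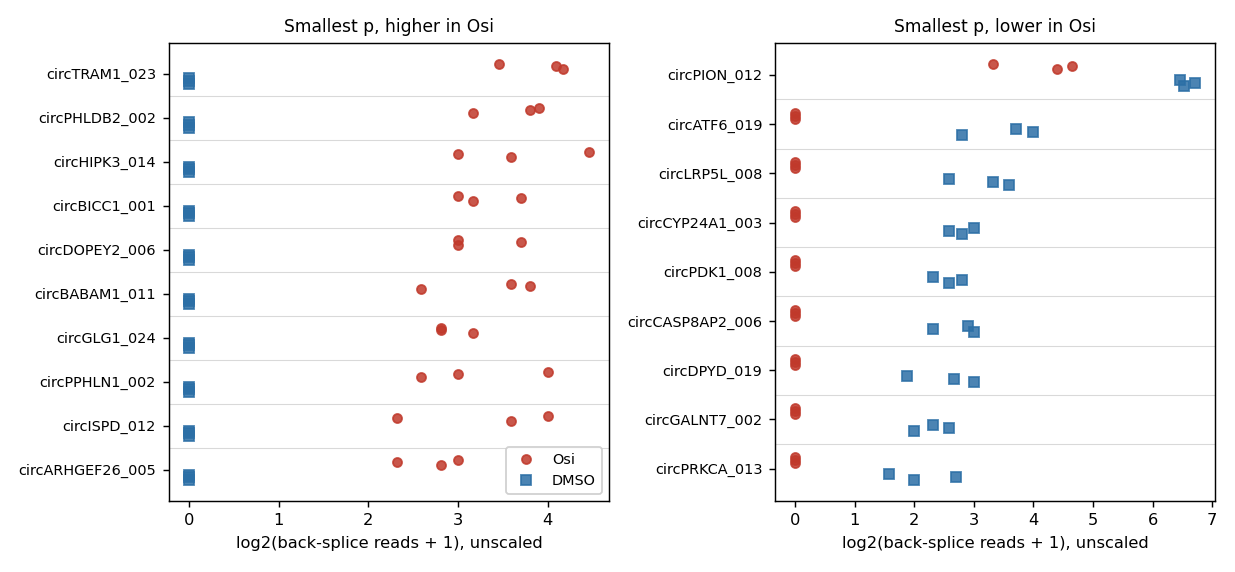
Log2(back-splice reads + 1), without scaling, in each Osi (circle) and DMSO (square) library for the 10 circRNAs with the smallest p that were higher in Osi (left) and the 9 with the smallest p that were lower in Osi (right). In all of them but hsa_circPION_012, which has reads in all 6 libraries, one of the groups sits at 0 in all 3 libraries.

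These 19 circRNAs were named by p among circRNAs whose groups do not overlap, and none passed the adjusted threshold in the comparison as specified. A filter on 2 reads in 3 libraries lets a circRNA with a group at 0 pass only through the other group, so that all 50 tested circRNAs of this kind, 37 with DMSO at 0 and 13 with Osi at 0, had to differ.

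Of the 10 circRNAs with the most reads, chosen by their mean scaled level over all 6 libraries, 5 lay lower in Osi and 0 higher without overlap after scaling, against 7.36% lower and 12.9% higher over all tested circRNAs. The latter shares include circRNAs with a whole group listed at 0, which could not overlap. None of the 10 passed the adjusted threshold by limma. hsa_circFGD6_014, from an activator of the GTPase CDC42, had 51, 40 and 54 reads in Osi libraries and 67.5, 69.5 and 100 reads in DMSO libraries. Every Osi library lay below every DMSO library, with a log2 fold change of -0.86 (SE 0.26) and an adjusted p of 0.162 by limma. hsa_circCRKL_001, the second exon of the signalling adaptor gene CRKL, had 37, 19 and 13 reads in Osi libraries and 30, 49 and 43 reads in DMSO libraries (log2 fold change -1.06, SE 0.40, adjusted p = 0.278 by limma). The CRKL groups overlapped in reads and were apart only after scaling.

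hsa_circTCONS_00015354_002, listed under a transcript ID, had 35, 29 and 16 reads in Osi libraries and 37, 43 and 34 reads in DMSO libraries. hsa_circGCN1L1_024, from a partner of the stress kinase GCN2, had 0, 22 and 25 reads in Osi libraries and 21, 64 and 43 reads in DMSO libraries. In both, the groups overlapped in reads and were apart only after scaling, with adjusted p of 0.389 and 0.409 by limma.

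For a pair of GTPase-activating proteins, hsa_circARHGAP12_002 had 39.5, 36.5 and 46.5 reads in Osi libraries and 63, 42.5 and 67.5 reads in DMSO libraries. hsa_circARHGAP5_001 had 38, 44 and 40 reads in Osi libraries and 24.5, 35 and 47 reads in DMSO libraries. hsa_circDCBLD2_008, from a receptor-like membrane protein, had 30, 17 and 31 reads in Osi libraries and 25, 32 and 21 reads in DMSO libraries. All 3 overlapped between groups.

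**Figure D4:**
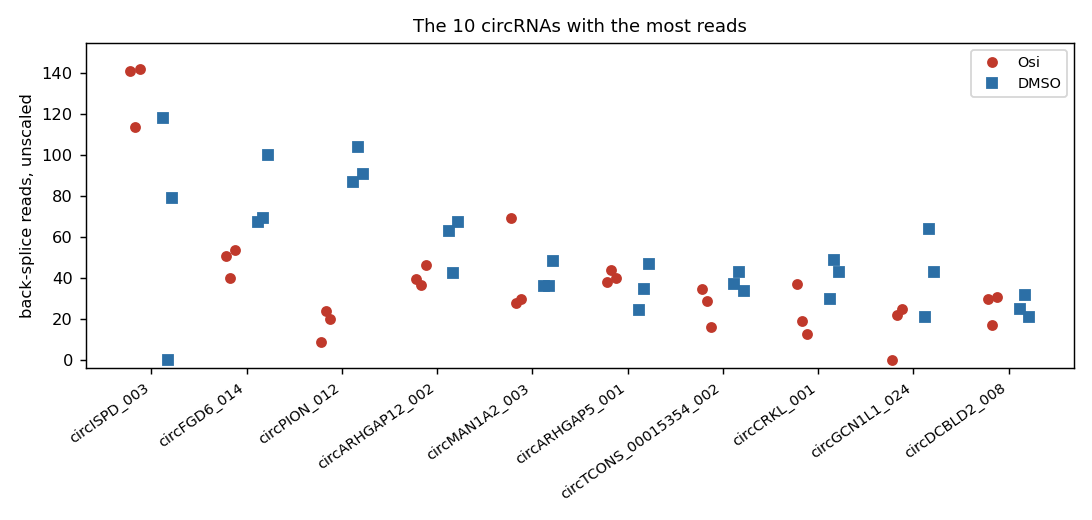
Back-splice reads without scaling in each Osi (circle) and DMSO (square) library for the 10 circRNAs with the most reads, ordered by their mean scaled level. hsa_circPION_012 and hsa_circFGD6_014 show no overlap between groups, and hsa_circISPD_003 has 1 DMSO library at 0 beside others at 79 and 118.

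Grouping by host gene largely repeated the circRNA values, since 2157 of the 2533 hosts had 1 circRNA. The host counts are therefore not a second line of support. Of 863 tested hosts, 0 passed an adjusted p of 0.05 (limma with Benjamini-Hochberg, smallest 0.0685), and at an unadjusted p under 0.05 there were 92 higher (10.7%) and 31 lower (3.59%). Voom called 0 higher and 1 lower, PION. The groups did not overlap for 117 hosts higher (13.6%) and 61 lower (7.07%). These counts, too, include hosts with a whole group listed at 0, which could not overlap.

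Of the 5 hosts with the smallest p on each side, TRAM1, BICC1, PHLDB2, HIPK3 and BABAM1 were higher and PION, LRP5L, ASPH, CYP24A1 and PDK1 lower in Osi. All of them but PION and ASPH had a whole group listed at 0 and so had to differ, given the filter. ASPH, an ER enzyme that hydroxylates aspartate, had 3 circles with summed reads of 2.27, 2.2 and 4.33 in Osi libraries and 14.3, 16.7 and 11.1 in DMSO libraries (log2 fold change -2.11, SE 0.42, adjusted p = 0.0843 by limma). The sum combined hsa_circASPH_024, with reads in all 6 libraries, and 2 circles with 0 reads in every Osi library. Of the latter, hsa_circASPH_005 had 9, 8 and 0 reads in DMSO libraries and hsa_circASPH_012 had 0, 0 and 3. Only hsa_circASPH_024 had enough reads to be tested by itself, with a log2 fold change of -1.25.

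Several circles of a host did not always lie on the same side. Of 58 hosts with more than 1 tested circRNA, 34 had all of them on 1 side of 0. Over all 870 tested circRNAs, 508 lay above 0 and 362 below, so circles of unrelated hosts would often share a side as well. Whether circles of the same host share it more often was not tested. The 3 hosts with 3 tested circles were VPS13A, a lipid transfer protein, ATXN10, a cytoplasmic protein linked to a spinocerebellar ataxia, and MAN1A2, a Golgi mannosidase that trims glycans. In VPS13A the log2 fold changes were 1.95 for hsa_circVPS13A_021, 1.57 for hsa_circVPS13A_039 and 0.42 for hsa_circVPS13A_006, with summed reads of 14.5, 17.5 and 15.5 in Osi libraries and 0, 12.5 and 5 in DMSO libraries. None passed the adjusted threshold by limma, and the groups overlapped for all 3. Without DMSO replicate 2 the log2 fold changes of hsa_circVPS13A_021 and hsa_circVPS13A_039 were 2.81 and 2.42, and without DMSO replicate 3 they were 1.48 and 1.1. The log2 fold change of the VPS13A sum was 1.87 with all libraries, 2.67 without DMSO replicate 2 and 0.81 without DMSO replicate 1.

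In ATXN10 the groups did not overlap for hsa_circATXN10_031 and hsa_circATXN10_026, with log2 fold changes of 1.75 and 1.07, and overlapped for hsa_circATXN10_020, with 1.02. None passed the adjusted threshold by limma, and the first of them was at 0.67 without DMSO replicate 3. The summed reads of ATXN10 were 18.2, 20 and 31.3 in Osi libraries and 10.8, 8.83 and 3.83 in DMSO libraries (log2 fold change 1.35, SE 0.45, adjusted p = 0.198 by limma). The summed groups did not overlap, and without DMSO replicate 3 the log2 fold change of the sum was 0.90. In MAN1A2 the log2 fold changes ranged from -0.21 to 1.16, and the sums of 73.3, 49 and 35 reads in Osi libraries and 43, 40.3 and 51.7 reads in DMSO libraries overlapped.

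Circles of one gene can share a splice site, as the junctions of these hosts show. In MAN1A2, hsa_circMAN1A2_027 and hsa_circMAN1A2_032 end at the same exon 12 and differ in the first exon, while in ATXN10, hsa_circATXN10_020 and hsa_circATXN10_026 begin at the same exon 2 and differ in the last exon.
hsa_circMAN1A2_027 (exons 7 to 12 of MAN1A2-201, chr1:118003111-118045592 of hg19, plus strand): tgctgaaacattaaaTGGAGTAGGGCGAAA
hsa_circMAN1A2_032 (exons 9 to 12 of MAN1A2-201, chr1:118035769-118045592 of hg19, plus strand): tgctgaaacattaaaATCATACATCTGTCG
hsa_circATXN10_020 (exons 2 to 5 of ATXN10-201, chr22:46085592-46098727 of hg19, plus strand): tgaatcagaatggccAGAAACAGCACCCAG
hsa_circATXN10_026 (exons 2 to 7 of ATXN10-201, chr22:46085592-46125470 of hg19, plus strand): cctcctgatgatgagAGAAACAGCACCCAG

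Lists of host genes showed no call after adjustment. None of the 8 lists held a circRNA with an adjusted p under 0.05, and the counts below are read against the 12.9% higher and 7.36% lower without overlap over all tested circRNAs. Those shares include circRNAs with a whole group listed at 0, which could not overlap. Members of a list that lie apart were picked for naming after their values were seen, unless they are among its 3 circRNAs with the most reads.

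Among genes of EGFR, receptor kinase and MAPK signalling, 16 circRNAs were tested, 3 lay higher and 1 lower without overlap, and the median log2 fold change was 0.29. hsa_circMAP3K1_008, from a kinase that activates the JNK and ERK routes, had 27, 20 and 18 reads in Osi libraries and 0, 8 and 5 reads in DMSO libraries (log2 fold change 2.47, SE 0.79, adjusted p = 0.193 by limma). The log2 fold change of hsa_circMAP3K1_008 was 1.51 without DMSO replicate 1, the library at 0, and 3.08 without DMSO replicate 2. hsa_circERBB2_004, from the partner receptor of EGFR, had 9, 5.5 and 19.5 reads in Osi libraries and 2, 2.5 and 4.5 reads in DMSO libraries (adjusted p = 0.281 by limma). The groups overlapped for hsa_circMET_001, from the receptor that can bypass EGFR, and for hsa_circMAP3K4_002.

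Of 10 tested circRNAs of calcium homeostasis genes, 1 lay higher and 2 lower, with a median of 0.02. The higher one, hsa_circPLCE1_001, was listed at 0 in every DMSO library. The lower ones were from protein kinases C: hsa_circPRKCE_009 had 4, 0 and 0 reads in Osi libraries and 10, 6 and 5 reads in DMSO libraries, and hsa_circPRKCA_013 was listed at 0 in Osi. A second ring, hsa_circPRKCA_006, had 13, 11 and 10 reads in Osi libraries and 14, 2 and 0 reads in DMSO libraries, and its groups overlapped.

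Of 11 circRNAs of ER stress and folding genes, 1 lay higher and 1 lower, with a median of -0.02. The lower one was hsa_circATF6_019 and the higher one hsa_circSEC63_012, from a translocon component, with 3.33, 2 and 4.67 reads in Osi libraries and 0, 1.67 and 0 reads in DMSO libraries. hsa_circRTN4_009, from a protein that shapes ER tubules, and hsa_circSEC24B_025, from a COPII coat protein, overlapped between groups.

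Host genes that themselves act in splicing and circRNA formation had 18 tested circRNAs, of which 0 lay higher and 1 lower, with a median of -0.25. The lower one, hsa_circRBM33_018, had 10, 11 and 12 reads in Osi libraries and 12.2, 12.7 and 16.3 reads in DMSO libraries (adjusted p = 0.584 by limma). hsa_circMETTL3_003, from the enzyme that writes m6A on RNA, had 17, 21 and 22 reads in Osi libraries and 17, 0 and 17 reads in DMSO libraries, overlapping groups with a lone 0.

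Chromatin regulators had 21 tested circRNAs, 3 higher and 1 lower without overlap, with a median of 0.47. Cell cycle, replication and repair genes had 18, with 0 higher and 1 lower and a median of -0.01. The YAP, TGF-beta and matrix list had 4, with 1 higher and a median of 0.71. Examples that lay higher were hsa_circSETD3_005, from a histidine methyltransferase, with 20, 17.5 and 13.5 reads in Osi libraries and 8, 4 and 11 reads in DMSO libraries, and hsa_circBMPR2_011, from a BMP receptor, with 4.5, 4 and 8 reads in Osi libraries and 0, 2 and 2.5 reads in DMSO libraries. Among chromatin regulators the lower one was the ring of NCOA3. It had 5, 0 and 3 reads in Osi libraries and 12, 8 and 7 reads in DMSO libraries. The lower one of the cell cycle list is not named here. The groups overlapped for the other named circRNAs of these lists. Log2 fold changes were 0.25 for hsa_circBRWD3_015, -0.85 for hsa_circPHIP_029, 1.33 for hsa_circTOP1_006 and -1.85 for hsa_circKIF20B_004. They were -0.12 for hsa_circCCNB1_010, 1.25 for hsa_circACVR2A_002 and -0.38 for hsa_circCTNNA1_007.

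Rings of genes that are often described in other cells were tested most often. Of 38 such circRNAs, 7 lay higher and 2 lower in Osi without overlap, with a median log2 fold change of 0.62 and values above 0 for 25. The higher ones include hsa_circHIPK3_014, which was listed at 0 in every DMSO library and could not overlap. The 2 lower ones are not named here, and the lowest log2 fold change in the list was -0.41. hsa_circRHOBTB3_029, from an atypical small GTPase, had 31.6, 19.1 and 19 reads in Osi libraries and 7.57, 10.4 and 10.3 reads in DMSO libraries (log2 fold change 1.03, adjusted p = 0.178 by limma). hsa_circCORO1C_024, from an actin-binding coronin, had 26, 26 and 26 reads in Osi libraries and 8, 19 and 18 reads in DMSO libraries (log2 fold change 0.68, adjusted p = 0.420 by limma).

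The rings of ZKSCAN1, a zinc finger protein, and XPO1, a nuclear exporter, overlapped between groups. hsa_circZKSCAN1_002 had 15.5, 20.5 and 26.5 reads in Osi libraries and 29, 18 and 22 reads in DMSO libraries.

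**Figure D5:**
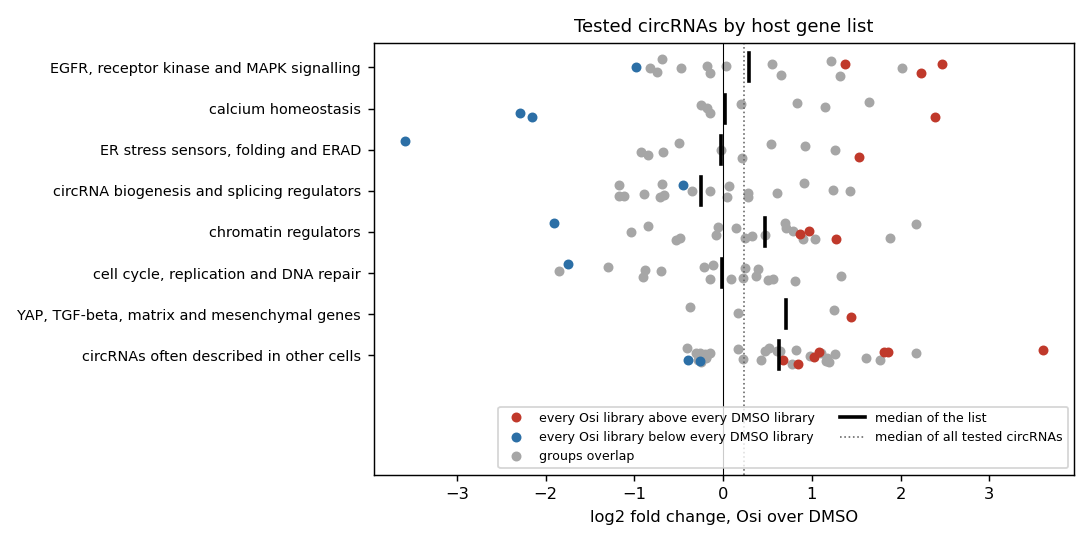
Log2 fold change (Osi over DMSO) of each tested circRNA, 1 row per list of host genes, with the list median as a bar and the median of all tested circRNAs as a dotted line; red and blue points are those whose groups do not overlap. List medians run from -0.25 for splicing regulators to 0.71 for the matrix list, which holds only 4 circRNAs.

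The circRNA values were set beside the counts of their host genes in other libraries of the series, drug-tolerant persister cells with empty vector (DTP EV) and Parental cells with empty vector (Parental EV), 3 libraries each. A gene count there does not separate rings from linear message, and the cells differ from the 10-day cultures. Among 15211 tested genes, DTP EV was higher for 28.7% and lower for 28.1% at an adjusted p under 0.05 (limma with Benjamini-Hochberg).

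Circles of hosts higher in DTP EV had higher values than those of hosts lower in DTP EV. The 244 tested circRNAs of hosts higher in DTP EV had a median log2 fold change (Osi over DMSO) of 0.68, with 50 higher (20.5%) and 9 lower (3.69%) without overlap. The 302 of hosts lower in DTP EV had a median of -0.15, with 22 higher (7.28%) and 39 lower (12.9%), and the 248 of hosts not called had a median of 0.24. Over all 794 circRNAs with a tested host, Pearson's r between the 2 log2 fold changes was 0.39 and Spearman's coefficient 0.33, and over the 281 of them with no library at 0 they were 0.42 and 0.35. Circles of a host share its value, and these correlations across circRNAs are a description without a test.

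Several hosts of the leading circRNAs moved strongly in that comparison. TRAM1 had 25230.3 ± 5398 scaled counts in DTP EV and 4717 ± 109 in Parental EV (SD, n = 3 each; log2 fold change 2.40, SE 0.11, adjusted p = 2.23e-11 by limma). CYP24A1 had 326 ± 74.7 scaled counts in DTP EV and 10079 ± 85.1 in Parental EV (log2 fold change -4.97, SE 0.70, adjusted p = 1.28e-05 by limma). PDK1 had 580.5 ± 113 scaled counts in DTP EV and 3789 ± 80.7 in Parental EV (log2 fold change -2.72, SE 0.12, adjusted p = 1.8e-11 by limma).

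Linear values of other hosts lay near 0 or on the other side. HIPK3 had 3204 ± 464 scaled counts in DTP EV and 3181 ± 80.4 in Parental EV (log2 fold change 0.00, SE 0.09, adjusted p = 1 by limma), and ATF6 had 3279 ± 22.6 scaled counts in DTP EV and 2927 ± 57.1 in Parental EV (log2 fold change 0.16, SE 0.06, adjusted p = 0.0367). MAP3K1 was lower in DTP EV, by 0.42 on the log2 scale (adjusted p = 9.98e-04 by limma), while its ring had the log2 fold change of 2.47 (Osi over DMSO) given above, which did not pass the adjusted threshold. The leading higher circRNAs had 9 hosts with a tested count, of which DTP EV was higher for 6 and lower for 1. Among the hosts of the leading lower circRNAs described above, DTP EV was higher for 1 and lower for 6.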

How the data were processed

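Per the labels, rRNA-depleted directional libraries were sequenced. FastQC, STAR, featureCounts, MultiQC and hg19 are named in the submitters' processing notes; the circRNA caller is not given in the sources used here. The authors deposited log10(reads + 1) per circRNA and log10(count + 1) per gene. Undoing the log10 gave whole reads in 64.8% of circRNA values above 0 (tolerance 1e-06), and 1996 circRNAs were whole in all 6 libraries; others were multiples of simple fractions, of unknown origin. The circRNA columns marked D were taken as DMSO and those marked O as Osi. The deposited fold changes and p-values were ignored, and 6 per-sample columns that could not be tied to samples were not used.

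Reads were scaled by TMM (written for this work) and log2(scaled reads + 1) was tested two-sided by limma 3.58.1 (R 4.3.3), using its mean-variance trend and Benjamini-Hochberg adjustment, threshold 0.05. Host sums used the same scaling. The 18 EV and cATF6 libraries were fitted together the same way, for genes with at least 10 counts in 3 libraries. Depth was 4941 to 7308 back-splice reads per library; replicates varied more than counting allows (chi-square per degree of freedom 4.58 in Osi, 4.80 in DMSO). The steps were run on simulated whole reads, with the same spread for every circRNA. That simulation held neither fractional reads nor missed calls, so it cannot show how the steps handle them.

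Exon pairs came from GENCODE 29. For 8 circRNAs, hsa_circATF6_019 among them, a pair matched only at a length 1 base shorter than the listed interval, a step added after hsa_circATF6_019 had not matched.

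Named were the 10 circRNAs per direction with the smallest p among those whose groups do not overlap (none passed; 1 of the lower ones is not reported here), those of ATF6 and EGFR, the 10 with the most reads, the 3 hosts with the most tested circRNAs, the 5 hosts per direction with the smallest p, and up to 3 per list with the most reads. Members and lists were chosen with earlier results of these data known. Alternatives were other scalings, filters, pseudocounts, fits without trend or with voom, rounding, whole-read circRNAs alone, the replicate block and each library left out.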

Additional observations from a re-analysis of the deposited data

How the results depend on the processing

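The call of 0 circRNAs depended on the model. Calls were 14 higher and 5 lower with no filter, 38 and 14 with a pseudocount of 0.1, 23 and 8 without trend, 0 and 1 with voom weights, and 0 and 1 with only circRNAs whole in all libraries. With zeros beside at least 10 reads in the same group set missing, an alternative chosen after seeing the data that removed 118 values, they were 4 and 3: TRAM1, HIPK3, PHLDB2 and BICC1 circles higher, and hsa_circPION_012, hsa_circLRP5L_008 and hsa_circATF6_019 lower. All of these but hsa_circPION_012 have a whole group listed at 0. That alternative leaves such zeros in place, so it cannot tell whether they are missed calls. For hosts, calls were 9 higher and 5 lower with no filter, 37 and 15 with a pseudocount of 0.1, 11 and 4 without trend, 0 and 1 with voom weights, and 0 and 1 with whole circRNAs only. All other alternatives, and leaving out any 1 library, gave 0 calls for both (range 0 to 0). With the replicate number as a block the counts were 0 and 0, smallest adjusted p 0.232. Same-numbered libraries deviated from their group means with correlations of 0.04, -0.07 and -0.02. With 3 sparse libraries per group, such values cannot settle whether a replicate number marks a shared culture.

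Over 74 named circRNAs and hosts and 1427 alternative values, 41 turned sign, none of them called, and 89 gained a call. The share of 5 to 30 kb circles turned to 1.01 percentage points higher in Osi with only tested circRNAs, and ranged from -0.99 to 0.068 with 1 library left out. Signs turned on the log2 scale under quantile normalization for hsa_circEGFR_011 (-0.14), hsa_circARHGAP12_002 (0.18), hsa_circMAN1A2_003 (0.077), hsa_circRBM39_018 (-0.11) and host MAN1A2 (0.48). Scaling by total reads turned hsa_circARHGAP5_001 (-0.071) and hsa_circRBM39_018 (-0.065), and RLE turned both too (-0.018 and -0.015). Without scaling, hsa_circMAP3K4_002 (0.0051), hsa_circCCNB1_010 (0.044), hsa_circXPO1_022 (0.020) and host MAN1A2 (0.16) turned. hsa_circCCNB1_010 also turned with pseudocounts of 0.5 (0.13) and 0.1 (0.82) and with voom (0.28), host MAN1A2 with whole circRNAs only (0.51), and with zeros set missing hsa_circPHIP_029 (0.38) and hsa_circTOP1_006 (-0.040).

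Leaving out 1 library turned others, with ranges of -0.10 to 0.22 for hsa_circARHGAP5_001, -0.40 to 0.044 for hsa_circDCBLD2_008, -0.33 to 1.36 for hsa_circVPS13A_006, -0.65 to 1.20 for hsa_circMAN1A2_027, -0.40 to 1.12 for hsa_circSEC24B_025, -0.034 to 0.16 for hsa_circRBM39_018, -1.51 to 0.38 for hsa_circPHIP_029, -0.040 to 2.05 for hsa_circTOP1_006, -1.57 to 0.93 for hsa_circCCNB1_010, -1.17 to 0.20 for hsa_circCTNNA1_007, -0.31 to 0.060 for hsa_circXPO1_022 and -0.26 to 0.26 for host MAN1A2. The cause was not tested. The 619 tested circRNAs with a mean under 5 scaled reads had a median SE of 0.78 on the log2 scale, against 0.35 for the 19 with 20 or more.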
